A study of Mus musculus with 2 samples.

Results

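Immediate early genes and heat shock genes were followed here as 38 named genes, out of 33038 genes with a row in either of 2 single-cell libraries of mouse pancreatic islets. Of these members, 28 were immediate early genes and 10 were heat shock genes. They were taken by symbol, and every one had a UMI (a unique molecular identifier, 1 per captured transcript) in both libraries. The question was how far such genes, which are read as a sign of stress during tissue dissociation, differed between the cell types of one preparation.

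RevGel-seq links each cell to a barcoded bead, holds the pairs apart in a hydrogel that can be melted again, and captures the RNA of each lysed cell on its bead. Both libraries came from control islets of male C57BL/6J mice at 8 weeks of age, with no treatment or transgene. Islets were freed with collagenase, picked by hand and dissociated with trypsin-EDTA at 37 °C, and each library was loaded with 10000 cells. The libraries were technical replicates of 1 islet preparation, so that every p-value below measures technical spread, with no spread between animals, and no undissociated control was analysed here.

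Immediate early genes are switched on by growth factors, depolarisation or injury from transcription factors that already sit in the cell, without new protein synthesis, and many encode transcription factors whose messages decay fast. Heat shock genes encode chaperones that hold or refold other proteins, and heat shock factor 1 drives their induction when unfolded proteins build up. Both programmes are known to be set off by warm enzymatic dissociation of solid tissues.

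Library 1 held 735 cells with 15931154 UMIs and library 2 held 748 cells with 17440292 UMIs, and the 2 tables shared 0 barcodes. Cells were grouped by which of insulin (Ins1 and Ins2 together), Gcg (glucagon), Sst (somatostatin) and Ppy (pancreatic polypeptide) reached 1% of their UMIs. In library 1 and library 2 this gave 182 and 190 insulin-only cells, 182 and 174 Gcg-only cells, 35 and 23 Sst-only cells, and 54 and 68 Ppy-only cells. These are called the 4 single-hormone groups. Cells without any of these hormones numbered 91 and 92, of which 27 and 33 carried endothelial markers and 42 and 40 leukocyte markers. Of the others, 65 and 86 cells held Gcg with Ppy, 77 and 71 held Sst with Ppy, 37 and 27 held insulin with another hormone, and 12 and 17 held Gcg with Sst. Near the limit, the highest hormone lay between 0.5% and 1% in 4 cells and between 1% and 2% in 0 cells, while the second hormone lay between 0.5% and 1% in 72 cells and between 1% and 2% in 119. Levels are given as CPM, UMIs of a gene per 1000000 UMIs that were not from the 5 hormone genes.

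The median share of insulin UMIs was 0.190% and 0.162% in the cells without a hormone, and whether free RNA was its source was not tested. Scrublet called 0.944% of cells as doublets, and these were kept. Markers of other cell types were at 0.0358 to 0.675 UMIs per 1000 (10 endothelial genes), 0.0630 to 0.390 per 1000 (12 leukocyte genes), 0.00335 to 0.0679 per 1000 (8 mesenchymal genes) and 0.210 to 0.350 per 1000 (9 exocrine genes) in the single-hormone groups. The upper end of the endothelial range was Sst-only cells of library 1, where all 10 genes had a UMI, against 0.0637 per 1000 in library 2, where 9 of 10 had one. Of these 10 genes, all had a UMI in insulin-only and Gcg-only cells and 8 in Ppy-only cells of each library. Endothelial-marker cells themselves had 27.2 and 25.3 per 1000. The part of these RNAs in the results was not tested.

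Promoter sequences are shown for members that stand for the heat shock and the growth factor programmes. RefSeq windows on GRCm38.p6, 300 bases long, were found for 31 of the 38 members. There were 32851 windows for 27025 genes, so some genes had several. The letters GAANNTTC, a core of the element that heat shock factor 1 binds and the same on both strands, lay in a window of 7 of 8 heat shock members matched (Hspa1a, Hspa1b, Hsph1, Dnaja1, Hspb1, Hspe1 and Hspd1), in 2 of 23 immediate early members (Fosl2 and Jun) and in 9.04% of all 27025 genes with a window. The 250 bases before the start of the paired genes Hspa1a and Hspa1b differed at 3 positions. They are printed 5′ to 3′ on the strand of the gene, with GAANNTTC in capitals, for Hspa1a (chr17:34972157-34972406, minus strand), Hspa1b (chr17:34959239-34959488, minus strand) and Hspb1 (chr5:135887669-135887918, plus strand), of which Hspb1 held 2 copies.
Hspa1a: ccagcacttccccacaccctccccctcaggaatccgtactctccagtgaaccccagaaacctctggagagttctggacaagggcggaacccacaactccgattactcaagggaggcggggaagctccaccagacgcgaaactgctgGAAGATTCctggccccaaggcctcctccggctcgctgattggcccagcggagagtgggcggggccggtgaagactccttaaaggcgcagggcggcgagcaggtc
Hspa1b: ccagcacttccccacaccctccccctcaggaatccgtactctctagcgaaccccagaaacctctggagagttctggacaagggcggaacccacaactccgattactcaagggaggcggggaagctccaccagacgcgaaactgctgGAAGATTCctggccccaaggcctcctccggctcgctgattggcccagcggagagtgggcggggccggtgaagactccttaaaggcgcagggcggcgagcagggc
Hspb1: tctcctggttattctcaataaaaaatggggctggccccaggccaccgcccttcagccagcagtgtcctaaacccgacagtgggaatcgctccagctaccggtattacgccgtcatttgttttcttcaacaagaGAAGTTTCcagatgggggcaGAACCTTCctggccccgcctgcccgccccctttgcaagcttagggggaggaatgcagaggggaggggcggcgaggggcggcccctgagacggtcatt

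The letters GCGGGGGCG, bound by proteins of the EGR family and searched on both strands, lay in 7 of 23 immediate early members matched (Fosb, Fosl2, Klf2, Klf4, Nr4a1, Zfp36 and Socs3), in 1 of 8 heat shock members (Dnaja1) and in 3.31% of all genes with a window. They are in capitals in the 250 bases before the start of Fosb (chr7:19310046-19310295, minus strand), Klf4 (chr4:55532476-55532725, minus strand) and Nr4a1 (chr15:101266596-101266845, plus strand).
Fosb: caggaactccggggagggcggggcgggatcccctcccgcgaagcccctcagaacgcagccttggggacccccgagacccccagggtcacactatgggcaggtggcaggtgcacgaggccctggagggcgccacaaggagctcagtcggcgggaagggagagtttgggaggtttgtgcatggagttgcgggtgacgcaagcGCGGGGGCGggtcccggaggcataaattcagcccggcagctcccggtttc
Klf4: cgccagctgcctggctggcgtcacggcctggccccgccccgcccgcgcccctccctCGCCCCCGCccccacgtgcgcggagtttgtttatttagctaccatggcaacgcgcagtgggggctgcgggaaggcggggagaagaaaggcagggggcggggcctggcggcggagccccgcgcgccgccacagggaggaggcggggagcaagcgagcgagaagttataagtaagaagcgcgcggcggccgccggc
Nr4a1: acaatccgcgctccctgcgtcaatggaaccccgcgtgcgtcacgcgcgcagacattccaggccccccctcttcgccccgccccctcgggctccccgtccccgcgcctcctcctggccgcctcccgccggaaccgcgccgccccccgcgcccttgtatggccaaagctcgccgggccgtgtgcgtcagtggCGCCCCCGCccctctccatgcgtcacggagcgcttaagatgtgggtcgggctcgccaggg

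Of the other motifs searched on both strands, the cyclic AMP response element TGACGTCA was in Btg2 and Dusp1 (2.03% of all genes), the serum response element in Egr2 and Zfp36 (1.81%), the TATA box TATAAA in Fos, Junb, Nr4a2 and Gadd45b (15.7%), the GC box GGGCGG in 29 of 31 members (38.2%), the other phase of the heat shock core, TTCNNGAA, in 4 members (9.60%) and the AP-1 site TGANTCA in 0 members (8.97%). None of the letters printed here contains another of them, but matches could share bases. In Fosb the EGR letters lay at bases -50 to -42 from the start and a GC box at -46 to -41. EGR and GC box matches also shared bases in Klf4, Nr4a1, Klf2, Fosl2 and Dnaja1, and did not in Zfp36 and Socs3. Such a match describes the window alone.

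The summed level of the immediate early members was lowest in insulin-only cells and highest in Ppy-only cells. It was 4631 and 4185 CPM in insulin-only cells of library 1 and library 2, 9221 and 9263 CPM in Sst-only cells, 14050 and 13187 CPM in Gcg-only cells and 20376 and 22468 CPM in Ppy-only cells. No library of one group overlapped with a library of another. Relative to insulin-only cells within a library, this was 2.10 ± 0.157-fold (SD, n = 2) in Sst-only, 3.09 ± 0.0831-fold in Gcg-only and 4.88 ± 0.685-fold in Ppy-only cells. With 2 libraries against 2, an exact permutation test of such a sum cannot give a two-sided p below 0.333, and none is given. The sum weighs the most abundant members most. In Ppy-only cells, where its mean was 21422 CPM, Jun, Fos, Egr1 and Fosb had means of 4478, 4028, 3361 and 2915 CPM.

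The summed heat shock members followed the same order at smaller folds, except that with all UMIs as the denominator Sst-only cells (mean 8956) lay above Gcg-only cells (8581). They were at 5033 and 4932 CPM in insulin-only, 9836 and 10034 CPM in Sst-only, 11573 and 11301 CPM in Gcg-only and 15017 and 17648 CPM in Ppy-only cells. Here too the 4 groups did not overlap between libraries. The folds over insulin-only cells were 1.99 ± 0.0566 in Sst-only, 2.30 ± 0.00586 in Gcg-only and 3.28 ± 0.420 in Ppy-only cells (SD, n = 2).

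**Figure D1:**
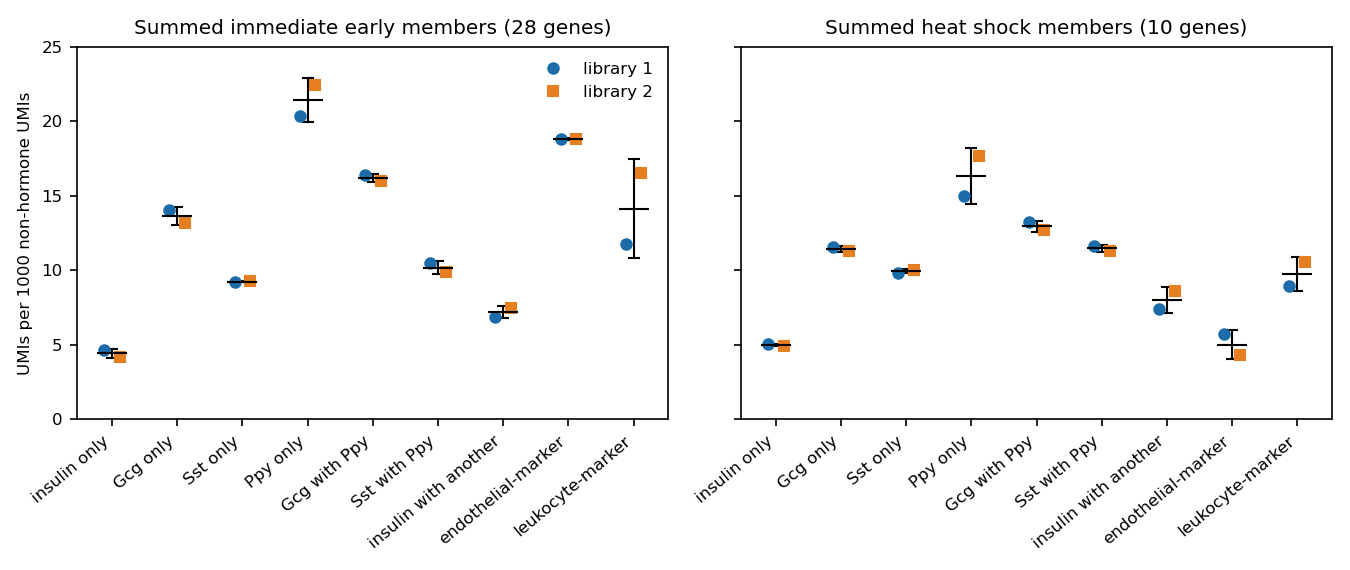
Summed level of the 28 immediate early members (left) and the 10 heat shock members (right), in UMIs per 1000 UMIs not from hormone genes, by cell group. Each point is 1 library and the black bar gives the mean with its SD; insulin-only cells lay at 4631 and 4185 CPM for the immediate early members and Ppy-only cells at 20376 and 22468 CPM, while endothelial-marker cells were high in the left panel and low in the right one.

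Other properties of the cells moved with these groups. The median mitochondrial share of UMIs was 0.371% and 0.326% in insulin-only cells, 0.509% and 0.390% in Sst-only, 0.574% and 0.582% in Gcg-only and 0.770% and 0.756% in Ppy-only cells. The median number of UMIs not from hormone genes was 11753 and 10188 in insulin-only cells and 18605 and 20180 in Ppy-only cells. Insulin made up a median of 38.7% and 41.5% of UMIs in insulin-only cells, and Ppy 36.3% and 36.5% in Ppy-only cells. The part of these in the order of the groups was not tested.

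Single members were compared on UMIs summed per group and library, with edgeR's quasi-likelihood test and Benjamini-Hochberg adjustment over 14528 genes. All 38 members passed the filter on low counts. Among the 4 single-hormone groups 33 of 38 members differed at an adjusted p below 0.05, against 32.9% of all genes tested. The members that did not pass were Fosl2, Myc, Ier3, Gadd45a and Hspd1, the last with an adjusted p of 0.0510. In 22 members both libraries of insulin-only cells were below all 6 values of the other single-hormone groups, which held for 12.9% of all genes tested. In 25 members both libraries of Ppy-only cells were above all 6 others, against 7.48% of all genes. Gcg-only cells were highest in this sense for 3 members (Nr4a2, Socs3 and Gadd45b), against 1218 of the 14528 genes tested. Sst-only cells were lowest for 3 members (Klf10, Nr4a2 and Ier5), against 1268 of the 14528 genes. Each of these counts was 7.89% of the members.

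**Figure D2:**
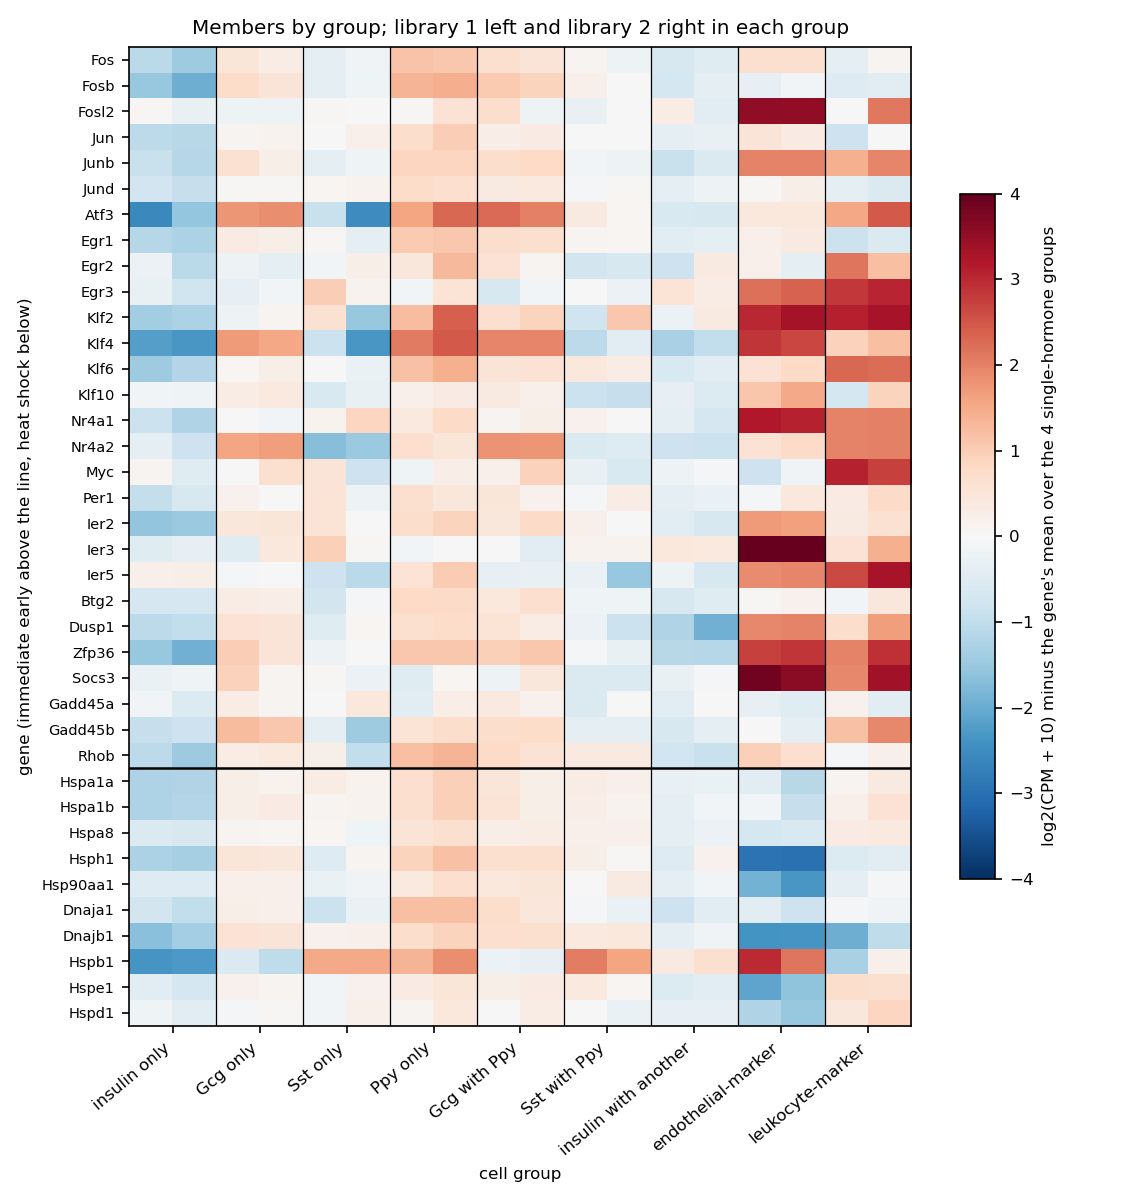
Level of each of the 38 members as log2(CPM + 10), minus the mean of that gene over the 4 single-hormone groups, with library 1 at the left and library 2 at the right of each group. Insulin-only columns are blue for most members, Ppy-only columns are red for most, and endothelial-marker columns are red for Ier3, Fosl2, Socs3 and Nr4a1 and blue for Hsph1, Dnajb1 and Hsp90aa1.

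The AP-1 subunits form pairs of Fos and Jun family proteins that bind DNA together. Fos (chr12:85473890-85477273, plus strand) was at 874 and 691 CPM in insulin-only cells, 1461 and 1690 CPM in Sst-only, 2604 and 2278 CPM in Gcg-only and 4138 and 3918 CPM in Ppy-only cells. Fosb, its close relative, was at 373 and 278 CPM, 837 and 965 CPM, 1816 and 1565 CPM and 2804 and 3026 CPM in the same order. For both, the 4 groups were apart in every library. Jun, the usual partner of Fos, was at 1199 and 1152 CPM in insulin-only and 4012 and 4944 CPM in Ppy-only cells, while its Sst-only (2450 and 2883 CPM) and Gcg-only (2696 and 2729 CPM) values overlapped. Junb rose from 147 and 120 CPM in insulin-only to 517 and 511 CPM in Ppy-only cells, and Jund, which is kept at a steadier level in most cells, from 206 and 185 CPM to 607 and 578 CPM. Fosl2 was at 6.74 to 20.5 CPM in all 4 groups and did not pass the test.

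Atf3, a stress-induced factor of the same bZIP class, had a different order. It was at 28.8 and 68.6 CPM in insulin-only cells and 114 and 30.2 CPM in Sst-only cells, which overlapped, against 767 and 814 CPM in Gcg-only and 681 and 1124 CPM in Ppy-only cells, which also overlapped. Gcg-only cells exceeded Sst-only cells by 3.45 ± 0.39 on the log2 scale, with an edgeR adjusted p of 1.10e-05. Between Gcg-only and Ppy-only cells the log2 fold change was -0.18 ± 0.30 and did not pass. In Sst-only cells 3 cells held 54.1% of the Atf3 UMIs, and the library with the higher value was the one with more endothelial marker RNA. Whether the Atf3 value and this RNA were linked was not tested.

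Of the EGR zinc finger factors, Egr1 followed the Fos pattern, with 725 and 657 CPM in insulin-only cells, 1661 and 1214 CPM in Sst-only, 2027 and 1896 CPM in Gcg-only and 3331 and 3390 CPM in Ppy-only cells. Egr2 and Egr3 were sparse, with 384 and 414 UMIs in all cells of both libraries. Egr2 was at 9.60 and 0.842 CPM in insulin-only and 21.5 and 45.7 CPM in Ppy-only cells. Egr3 was at 4.8 and 0.421 CPM in insulin-only and 26.4 and 10.1 CPM in Sst-only cells, and 3 cells held 93.3% of its Sst-only UMIs.

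The Krüppel-like factors bind GC-rich promoter boxes, and Klf4 showed the largest difference of any member between insulin-only and Ppy-only cells. Klf4 was at 15.5 and 13.5 CPM in insulin-only, 54.9 and 13.4 CPM in Sst-only, 376 and 335 CPM in Gcg-only and 486 and 632 CPM in Ppy-only cells. Insulin-only and Sst-only cells overlapped. In Sst-only cells 3 cells held 72.4% of the Klf4 UMIs, and the library 2 value rested on 4 UMIs, with a 95% Poisson interval of 3.65 to 34.3 CPM for counting error. Klf6 rose from 90.1 and 110 CPM in insulin-only through 257 and 215 CPM in Sst-only and 275 and 305 CPM in Gcg-only to 593 and 717 CPM in Ppy-only cells. Klf2, known for its response to shear stress in endothelium, was at 8.12 and 10.1 CPM in insulin-only and 103 and 244 CPM in Ppy-only cells. It differed between the libraries in Sst-only cells (63.7 and 6.70 CPM), where the endothelial marker RNA differed too. Whether these differences were linked was not tested. Klf10, a target of transforming growth factor beta, had a narrower range of 33.0 to 76.9 CPM and was lowest in Sst-only cells (33.0 and 43.6 CPM).

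**Figure D3:**
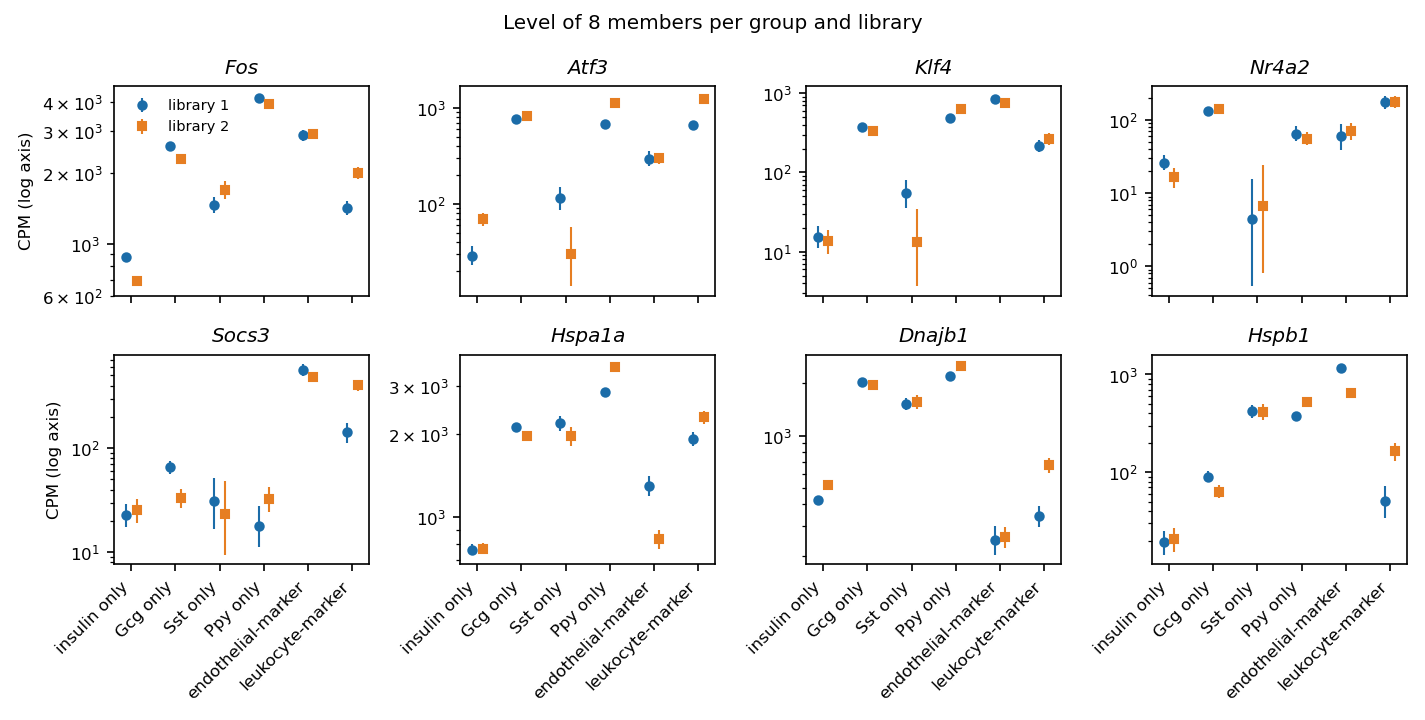
Level of 8 members in CPM on a log axis, in the 4 single-hormone groups and in endothelial-marker and leukocyte-marker cells. Each point is 1 library with its 95% Poisson interval; Atf3 and Klf4 are low in insulin-only and Sst-only cells, Nr4a2 is low in Sst-only cells, and Hspb1 is low in insulin-only cells and high in Sst-only, Ppy-only and endothelial-marker cells.

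The orphan nuclear receptors Nr4a1 and Nr4a2 went apart. Nr4a1 was at 38.8 and 28.6 CPM in insulin-only cells and at 72.2 to 151 CPM in the other 3 groups, of which Sst-only and Ppy-only cells overlapped. Nr4a2 (minus strand of chromosome 2) was highest in Gcg-only cells, with 131 and 141 CPM, followed by Ppy-only (65.3 and 55.7 CPM) and insulin-only cells (26.2 and 16.4 CPM). In Sst-only cells it was at 4.39 and 6.70 CPM, from 2 UMIs in each library, with Poisson intervals of 0.532 to 15.9 CPM and 0.812 to 24.2 CPM. Gcg-only cells exceeded Sst-only cells by 4.77 ± 0.38 on the log2 scale, with an edgeR adjusted p of 1.74e-07. Of the other transcription factors, the clock gene Per1 was at 38 and 49.3 CPM in insulin-only cells and 70.4 to 136 CPM in the other 3, and Myc was at 17.7 CPM or less in all 4, with 0 UMIs in Sst-only cells of library 2, which allows up to 10.1 CPM.

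Feedback regulators act on the signals or messages that the early response sets off. Zfp36, which speeds the decay of AU-rich messages, was at 34.0 and 23.6 CPM in insulin-only cells, 101 and 114 CPM in Sst-only, 240 and 172 CPM in Gcg-only and 260 and 256 CPM in Ppy-only cells. Dusp1, a phosphatase of MAP kinases, was at 76.0 and 79.2 CPM, 116 and 178 CPM, 255 and 242 CPM and 266 and 284 CPM in that order. Insulin-only cells lay apart from the other groups for both genes. Ier2, a nuclear protein, rose from 90.8 and 96.0 CPM in insulin-only to 474 and 544 CPM in Ppy-only cells, the small GTPase Rhob from 105 and 77.1 CPM to 541 and 604 CPM, and the antiproliferative gene Btg2 from 307 and 303 CPM to 853 and 837 CPM. Gadd45b, an activator of stress kinases, was at 56.5 and 60.6 CPM in insulin-only, 85.7 and 36.9 CPM in Sst-only, 297 and 255 CPM in Gcg-only and 174 and 197 CPM in Ppy-only cells. Its order, with Gcg-only cells on top and insulin-only and Sst-only cells overlapping, was like that of Nr4a2 at the upper end.

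The other 4 feedback members had low values among the hormone groups. Socs3, an inhibitor of cytokine receptors, was at 65.5 and 32.9 CPM in Gcg-only cells and at 18.0 to 32.2 CPM elsewhere. Ier5, a partner of heat shock factor 1, was at 55.7 and 57.3 CPM in insulin-only, 45.3 and 46 CPM in Gcg-only, 22.0 and 16.8 CPM in Sst-only and 73.0 and 106 CPM in Ppy-only cells. Ier3, linked to survival signalling, was at 10.7 to 46.1 CPM and Gadd45a, a p53 target, at 10.5 to 30.2 CPM, with no test passed between any of these groups.

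The inducible heat shock protein 70 is encoded by Hspa1a and Hspa1b, 9951 bases apart on chromosome 17. Hspa1a was at 761 and 768 CPM in insulin-only, 2191 and 1964 CPM in Sst-only, 2130 and 1971 CPM in Gcg-only and 2850 and 3503 CPM in Ppy-only cells. Hspa1b was at 318 and 332 CPM, 835 and 851 CPM, 898 and 966 CPM and 1195 and 1506 CPM in that order. For Hspa1a the middle groups overlapped, and insulin-only cells were below and Ppy-only cells above all others. No stretch of 70 bases in the last 500 of either transcript was found in another gene, so that reads there could be assigned. Hsph1, a nucleotide exchange factor of the 110 kind, was at 443 and 418 CPM in insulin-only and 1982 and 2440 CPM in Ppy-only cells. The constitutive Hspa8 moved less, from 1392 and 1329 CPM to 2971 and 3216 CPM, and 81.0% of such stretches at its 3′ end were shared with 9 other genes, so that its counts are uncertain.

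Hsp90aa1, the inducible heat shock protein 90, was at 908 and 907 CPM in insulin-only, 1092 and 1173 CPM in Sst-only, 1512 and 1505 CPM in Gcg-only and 1702 and 2078 CPM in Ppy-only cells. The J-domain cochaperones hand clients to heat shock protein 70. Dnajb1 was at 423 and 518 CPM in insulin-only, 1525 and 1559 CPM in Sst-only, 2027 and 1968 CPM in Gcg-only and 2199 and 2512 CPM in Ppy-only cells, 4 groups that did not overlap. Dnaja1 was at 248 and 205 CPM in insulin-only and 226 and 342 CPM in Sst-only cells, which overlapped, 491 and 478 CPM in Gcg-only and 975 and 975 CPM in Ppy-only cells.

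Hspb1, a small heat shock protein that binds actin and unfolded clients, was the heat shock member with the widest range. It was at 19.2 and 20.6 CPM in insulin-only cells, 89.9 and 63.4 CPM in Gcg-only, 420 and 416 CPM in Sst-only and 374 and 528 CPM in Ppy-only cells. It was the 1 heat shock member to pass the test as lower in Gcg-only than in Sst-only cells, at -2.34 ± 0.21 on the log2 scale and an edgeR adjusted p of 8.15e-07. Of its 3′ stretches 11.4% were shared with the pseudogene Hsp25-ps1. The mitochondrial chaperonin pair Hspe1 and Hspd1, which overlap at their 5′ ends, moved from 254 and 214 CPM to 445 and 493 CPM for Hspe1 and from 266 and 221 CPM to 325 and 399 CPM for Hspd1 between insulin-only and Ppy-only cells. For Hspe1, 40.8% of the stretches were shared with 2 other genes.

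In insulin-only against Gcg-only cells, 30 of 38 members were lower (12.7% of all genes tested) and 0 were higher (12.9%), with a median log2 fold change of -1.29 over the members and -0.01 over all genes. The largest were Klf4 (-4.58 ± 0.26), Atf3 (-4.01 ± 0.35), Zfp36 (-2.81 ± 0.19), Nr4a2 (-2.64 ± 0.19), Fosb (-2.36 ± 0.15), Gadd45b (-2.21 ± 0.17), Ier2 (-2.10 ± 0.17) and Dnajb1 (-2.06 ± 0.12), given as log2 fold change and SE. Atf3 was at -4.72 in library 1 and -3.52 in library 2 alone, and Socs3, at -1.01 in both together, at -1.51 and -0.34. All 30 adjusted p-values from edgeR lay between 9.74e-10 and 0.0229. At an unadjusted p below 0.05, too, 0 members were higher here, as in the comparisons of insulin-only and Sst-only with Ppy-only cells, and DESeq2 gave the same sign to all called members of the 3 comparisons. Over all comparisons among hormone groups and cells without a hormone, 165 calls also passed with DESeq2 and 10 did not.

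In insulin-only against Ppy-only cells, 31 members were lower (10.6% of all genes) and 0 higher (10.2%), with a median of -1.90 over the members. All 10 heat shock members were among the 31. Klf4 (-5.23 ± 0.26), Hspb1 (-4.47 ± 0.23), Klf2 (-4.23 ± 0.56), Atf3 (-4.19 ± 0.35), Fosb (-3.13 ± 0.16), Zfp36 (-3.12 ± 0.19), Klf6 (-2.68 ± 0.16) and Egr2 (-2.62 ± 0.62) led, with adjusted p-values over the 31 of 5.12e-10 to 0.0273 by edgeR. Egr2 was at -1.16 in library 1 and -5.39 in library 2 alone, the called Egr3 at -0.54 and -4.67 and Klf2 at -3.63 and -4.51.

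Insulin-only against Sst-only cells gave fewer calls, with 20 members lower (7.32% of all genes) and 2 higher (7.39%), and a median of -0.90. Hspb1 (-4.25 ± 0.24), Egr3 (-2.68 ± 0.78), Ier2 (-1.82 ± 0.18), Zfp36 (-1.75 ± 0.24), Nr4a1 (-1.63 ± 0.25), Dnajb1 (-1.58 ± 0.12), Fosb (-1.33 ± 0.15) and Hspa1a (-1.31 ± 0.15) were lower. The calls of Egr3 and Zfp36 rested on few cells, since 3 cells held 93.3% and 52.5% of their Sst-only UMIs. Nr4a2 (2.13 ± 0.50) and Ier5 (1.64 ± 0.46) were higher in insulin-only cells. Within library 1 and library 2 alone, the differences were -2.34 and -4.07 for Egr3, -1.07 and -2.26 for Nr4a1 and 2.39 and 1.13 for Nr4a2, and those of the called Per1 and Rhob were -1.63 and -0.40 and -1.25 and -0.39. The Nr4a2 difference turned to -0.85 (adjusted p = 0.472) when the hormone limit was set at 0.5%, and its Sst-only level rested on 4 UMIs in all.

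**Figure D4:**
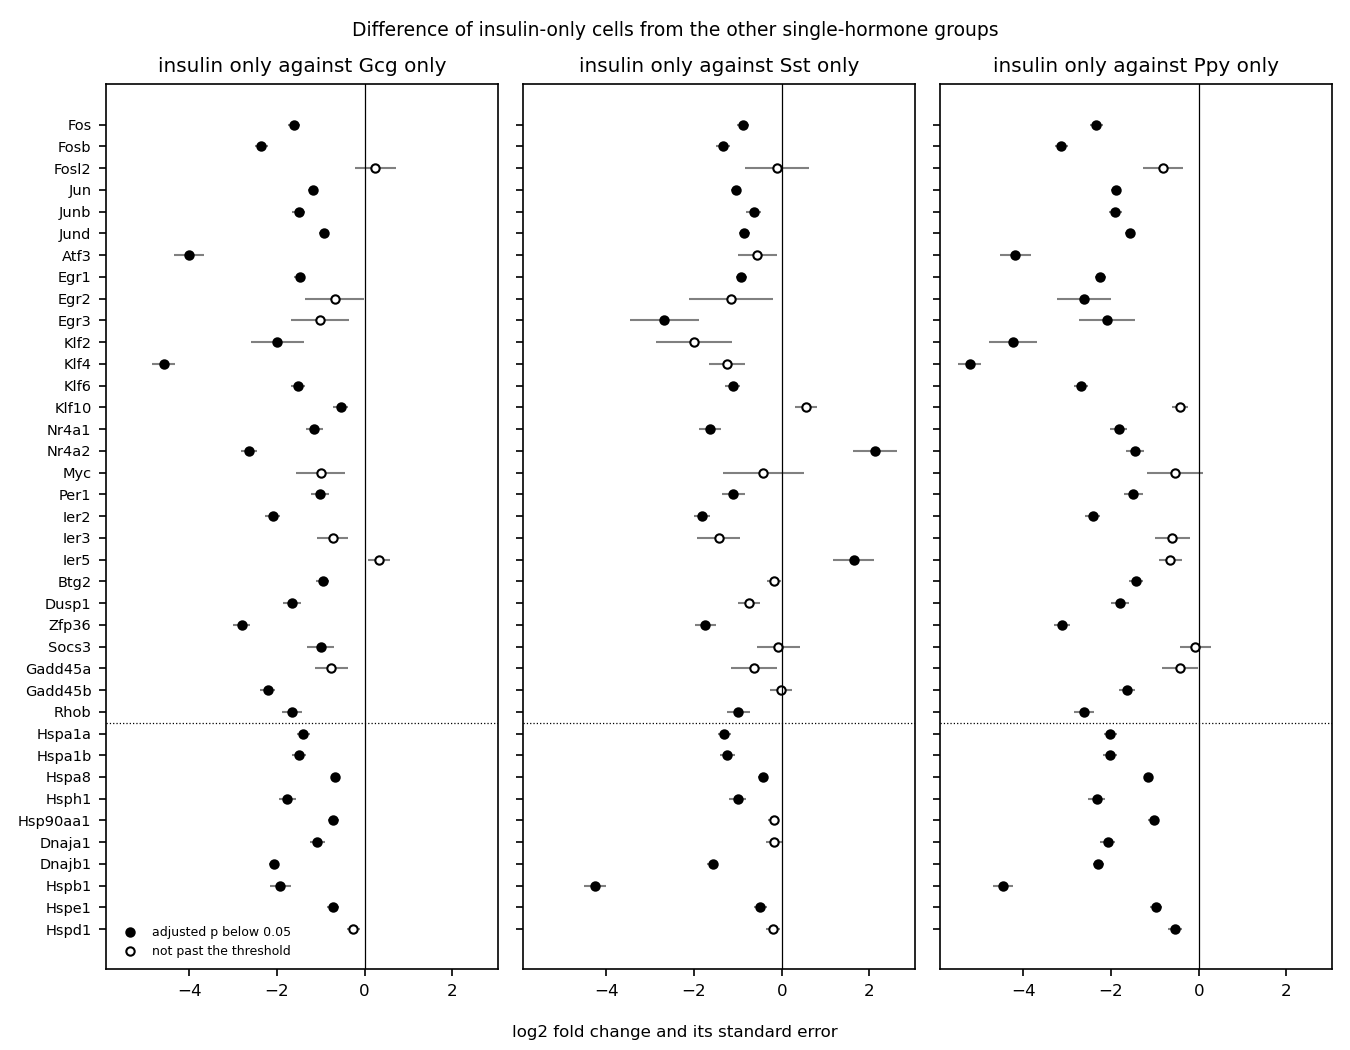
Log2 fold change of insulin-only cells against Gcg-only, Sst-only and Ppy-only cells for the 38 members, with its standard error. Filled points passed an adjusted p of 0.05 in edgeR's quasi-likelihood test; 30, 22 and 31 members did so, and all of them lie left of 0 but Nr4a2 and Ier5 in the middle panel.

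Among the other 3 groups, 16 members were higher in Gcg-only than in Sst-only cells (6.02% of all genes) and 1, Hspb1, was lower (6.81%). The leading ones were Nr4a2, Atf3, Klf4 (3.34 ± 0.31), Gadd45b (2.19 ± 0.22), Klf10 (1.1 ± 0.25), Zfp36 (1.06 ± 0.21), Fosb (1.02 ± 0.15) and Dusp1 (0.91 ± 0.24). With the same number of cells in every sum 11 members passed in either direction, in place of 17. Within library 1 and library 2 alone, the differences were 2.85 and 4.78 for Atf3, 2.87 and 4.58 for Klf4, 1.90 and 2.83 for Gadd45b and 4.70 and 4.17 for Nr4a2.

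Gcg-only cells were lower than Ppy-only cells for 17 members (5.09% of all genes) and higher for 2 (4.78%), Nr4a2 (1.19 ± 0.18) and Gadd45b (0.58 ± 0.16). Lower were Hspb1 (-2.55 ± 0.20), Klf2 (-2.25 ± 0.46), Egr2 (-1.94 ± 0.58), Klf6 (-1.17 ± 0.15), Dnaja1 (-1.0 ± 0.17), Ier5 (-0.98 ± 0.26), Rhob (-0.96 ± 0.22) and Fosb (-0.77 ± 0.15) at the head. Egr2 was at -1.11 in library 1 and -2.51 in library 2 alone. With the same number of cells in every sum 4 of the 38 members passed in place of 19.

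Sst-only cells were lower than Ppy-only cells for 27 members (4.52% of all genes) and higher for 0 (4.95%). Klf4 (-3.99 ± 0.30), Atf3 (-3.63 ± 0.40), Nr4a2 (-3.58 ± 0.43), Ier5 (-2.28 ± 0.44), Klf2 (-2.23 ± 0.63), Dnaja1 (-1.90 ± 0.19), Fosb (-1.80 ± 0.15) and Rhob (-1.63 ± 0.25) led. With the same number of cells in every sum 17 members passed. Within library 1 and library 2 alone, Klf2 differed by -0.79 and -4.95, Atf3 by -2.68 and -5.23, Klf4 by -3.23 and -5.48, Nr4a2 by -3.70 and -2.83, Rhob by -1.11 and -2.52 and the called Gadd45b by -1.13 and -2.44.

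Cells in which Ppy reached 1% together with Gcg or Sst, whichever was higher, were set against Gcg-only and Sst-only cells. Cells of insulin with another hormone were not tested. No member passed the edgeR test between Gcg with Ppy and Gcg-only cells, where 0.0344% of all genes did, nor between Sst with Ppy and Sst-only cells, where 0.0138% did. At an unadjusted p below 0.05 there were 7 and 8 members, and DESeq2 called 0 in both. No share of all genes at this unadjusted limit is given here, so the 7 and 8 cannot be set against a background. The summed immediate early level was 16408 and 15983 CPM in Gcg with Ppy cells, above both Gcg-only values and below both Ppy-only values, and 10504 and 9850 CPM in Sst with Ppy cells. Klf4, at 444 and 451 CPM in Gcg with Ppy and 47.4 and 76.8 CPM in Sst with Ppy cells, and Hspb1, at 118 and 108 CPM and 601 and 439 CPM, differed between these groups as they did between Gcg-only and Sst-only cells. Cells of insulin with another hormone lay above insulin-only and below the other 3 single-hormone groups, with 6881 and 7462 CPM of immediate early and 7404 and 8619 CPM of heat shock members. They held 20% and 19.6% insulin as the median, and 4 of the doublet calls in library 2 were among them.

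Cells without a hormone had more immediate early RNA than the average of the 4 single-hormone groups, and a mixed heat shock response. Of the 38 members 26 were higher (35.2% of all genes) and 3 lower (24.7%) by edgeR, and the median of all genes was itself shifted by 0.12. Ier3 (3.79 ± 0.20), Fosl2 (3.59 ± 0.27), Socs3 (3.38 ± 0.20), Egr3 (3.34 ± 0.33), Klf2 (3.1 ± 0.33), Myc (2.88 ± 0.37), Zfp36 (2.65 ± 0.12) and Nr4a1 (2.52 ± 0.13) led the 26. The 3 lower ones were Dnajb1 (-1.38 ± 0.10), Hsph1 (-1.13 ± 0.16) and Hsp90aa1 (-0.51 ± 0.10). All 29 calls kept their sign once the shift of all genes was taken off.

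Endothelial-marker cells combined high immediate early with low heat shock levels. The sums were 18785 and 18851 CPM for the immediate early and 5686 and 4316 CPM for the heat shock members, the former below Ppy-only cells and the latter overlapping with insulin-only cells. In a fit with the cells without a hormone divided by their markers (14194 genes), 21 members were higher than in the single-hormone groups (24.2% of all genes) and 8 lower (27.5%), with a median of all genes at -0.18. Ier3 was at 485 and 546 CPM, Fosl2 at 226 and 230 CPM and Socs3 at 568 and 478 CPM, all above every single-hormone value. Their log2 fold changes were 4.92 ± 0.20, 4.66 ± 0.32 and 4.31 ± 0.25, followed by Klf2 (3.67 ± 0.30), Egr3 (3.55 ± 0.34), Nr4a1 (3.52 ± 0.12), Klf4 (3.17 ± 0.15) and Zfp36 (3.17 ± 0.16). Egr3 was at 3.36 in library 1 and 4.22 in library 2 alone.

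The single heat shock member that was higher in endothelial-marker cells was Hspb1, at 1172 and 653 CPM (3.00 ± 0.20). All 8 lower members were heat shock genes. Hsph1 was at 129 and 126 CPM (-2.85 ± 0.20), Dnajb1 at 249 and 259 CPM (-2.19 ± 0.19) and Hsp90aa1 at 346 and 254 CPM (-1.92 ± 0.15), each below the insulin-only values. Hspe1 (-1.66 ± 0.16), Hspd1 (-1.24 ± 0.17), Hspa1a (-0.55 ± 0.14), Hspa8 (-0.44 ± 0.10) and Dnaja1 (-0.43 ± 0.15) made up the rest.

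Leukocyte-marker cells had 11773 and 16513 CPM of immediate early and 8948 and 10543 CPM of heat shock members. Library 2 was the higher one in both sums. The leukocyte list held genes such as Cd79a, Cd3e and Lyz2, and kinds of leukocyte were not told apart. Whether the mix of kinds differed between the libraries was not tested. In these cells 24 members were higher (27.0% of all genes) and 5 lower (32.2%), with a median of all genes at -0.24. Egr3 (4.11 ± 0.31), Myc (3.85 ± 0.37), Klf2 (3.54 ± 0.30), Ier5 (3.36 ± 0.20), Socs3 (3.23 ± 0.28), Zfp36 (2.76 ± 0.16), Nr4a2 (2.58 ± 0.18) and Egr2 (2.53 ± 0.44) led, the last with 57% of its UMIs in 3 cells. Dnajb1 (-1.34 ± 0.17), Egr1 (-0.64 ± 0.12), Jund (-0.41 ± 0.12), Hsph1 (-0.40 ± 0.16) and Fosb (-0.39 ± 0.13) were lower. Within library 1 and library 2 alone, the differences were 3.94 and 4.78 for Egr3, 2.29 and 3.88 for Socs3 and 2.10 and 3.27 for Zfp36. Fosl2, also called higher, was at 0.13 and 2.94.

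Set against each other, endothelial-marker cells were higher than leukocyte-marker cells for 14 members (20.1% of all genes) and lower for 15 (18.9%). Ier3 (3.48 ± 0.31), Hspb1 (3.21 ± 0.32), Fosl2 (2.53 ± 0.44), Klf4 (1.87 ± 0.20), Ier2 (1.34 ± 0.16), Klf10 (1.31 ± 0.31), Nr4a1 (1.29 ± 0.16) and Egr1 (1.14 ± 0.15) were higher. Myc (-4.79 ± 0.71), Egr2 (-2.49 ± 0.69), Hsph1 (-2.45 ± 0.22), Hspe1 (-2.42 ± 0.19), Hspd1 (-2.0 ± 0.20), Hsp90aa1 (-1.82 ± 0.17), Gadd45b (-1.74 ± 0.24) and Atf3 (-1.55 ± 0.32) were lower. The call of Egr2 rested on few cells, since 3 cells held 57% of its UMIs in leukocyte-marker cells. Several of these sizes depended on the library. Fosl2, at 10.1 and 77.3 CPM in leukocyte-marker cells, differed by 4.48 in library 1 and 1.74 in library 2 alone, and Hspb1, at 50.6 and 163 CPM there, by 4.62 and 2.17. Klf10 differed by 2.19 and 0.85, Gadd45b by -1.11 and -2.22, Myc by -6.84 and -3.82 and the called Socs3 by 2.10 and 0.43. Myc was at 142 and 108 CPM in leukocyte-marker cells and at 0 and 6.22 CPM in endothelial-marker cells, where 0 UMIs allow up to 6.92 CPM.

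The share of cells with a UMI was taken after every cell had been thinned to 3000 UMIs not from hormone genes, and the shallowest cell had 3925, so that none was lost. Fos was seen in 66.5% and 63.7% of insulin-only cells and in 96.3% and 98.5% of Ppy-only cells. Klf4 was seen in 2.20% and 3.16% of insulin-only cells (95% exact binomial intervals of 0.602 to 5.53% and 1.17 to 6.75%), 50.6% and 42.0% of Gcg-only, 8.57% and 4.35% of Sst-only and 50% and 76.5% of Ppy-only cells. Without thinning the Klf4 shares were 8.79% and 8.42% in insulin-only and 76.9% and 71.8% in Gcg-only cells. No group here is known to lack Klf4, so that no background share can be given for it. Atf3 was seen in 8.24% and 6.32% of insulin-only and 65.4% and 62.6% of Gcg-only cells, and Hspb1 in 6.04% and 4.21% of insulin-only and 51.4% and 56.5% of Sst-only cells. Intervals cover counting error alone.

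Within a group, cells with more immediate early RNA also held more heat shock RNA. Over cells, Spearman's rho between the summed levels was 0.59 and 0.57 in insulin-only, 0.55 and 0.72 in Gcg-only, 0.64 and 0.71 in Sst-only and 0.56 and 0.55 in Ppy-only cells, with 23 to 190 cells a library. It was 0.65 and 0.59 in leukocyte-marker cells and 0.12 and 0.12 in endothelial-marker cells. The cells share their library and preparation, and both sums share a denominator, so these are descriptions with no test. Against the share of insulin in insulin-only cells, the immediate early sum had a rho of -0.40 and -0.37 and the heat shock sum -0.25 and -0.13. Against the UMIs not from hormone genes, the immediate early rho was 0.23 and 0.23 in insulin-only and -0.10 and 0.02 in Gcg-only cells. It was -0.06 and 0.42 in Sst-only and -0.14 and 0.03 in Ppy-only cells. Against the mitochondrial share of UMIs, it was 0.33 and 0.22 in insulin-only, 0.21 and 0.40 in Gcg-only and 0.24 and 0.33 in Sst-only cells. Ppy-only cells had 0.29 and -0.01, leukocyte-marker cells -0.45 and -0.55 and endothelial-marker cells -0.33 and 0.08.

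**Figure D5:**
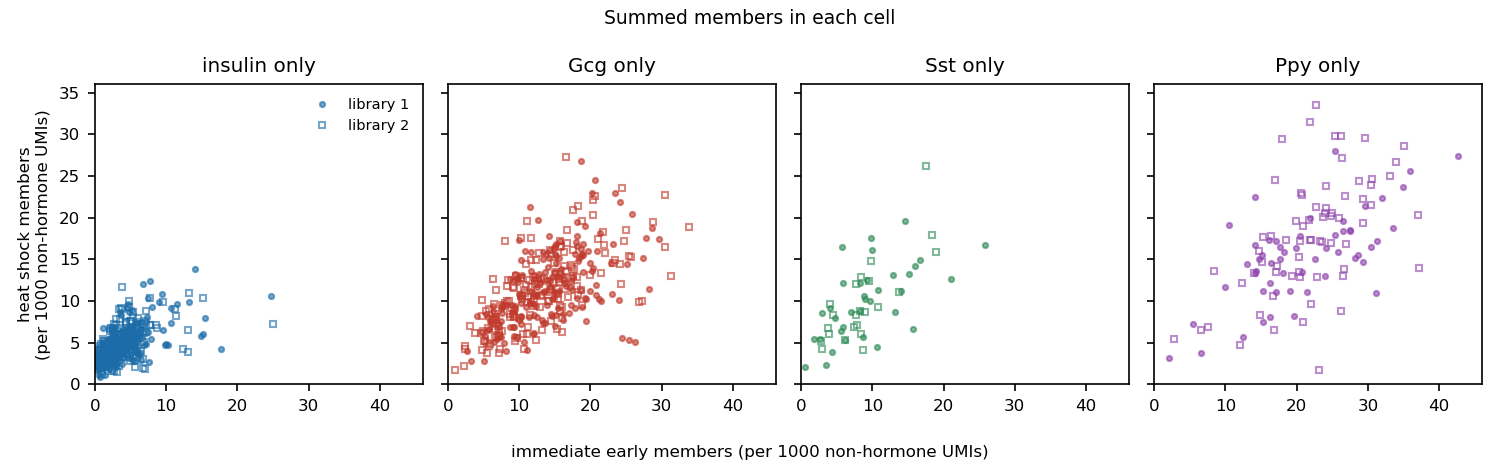
Summed heat shock members against summed immediate early members in each cell, both per 1000 UMIs not from hormone genes, for the 4 single-hormone groups. Filled circles are cells of library 1 and open squares cells of library 2; both sums rise together within each group, with a rho between 0.55 and 0.72.

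Cells of 1 group spread widely. The middle 90% of insulin-only cells in library 1 ran from 826 to 10696 CPM of immediate early members, and that of Ppy-only cells from 8780 to 34035 CPM, so that single cells of these groups overlapped while the sums did not. No cell of the 1483 was without a UMI of an immediate early member. Of the 231 pairs among 22 members seen in at least 25% of cells of every single-hormone group, 229 had a mean rho above 0 over the 8 groups and libraries, with a median of 0.19. Pairs of other genes were not computed, and all levels of a cell share a denominator. These values therefore describe the members without a background. Fosb with Egr1 (0.43), Hspa1a with Hspa1b (0.43), Fos with Egr1 (0.42), Jun with Egr1 (0.41) and Fos with Fosb (0.41) were the most alike. Egr1 with Dnajb1 (0.37) was the most alike pair across the 2 sets of members.

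Further genes of these programmes were counted from lists of their own. Of 42 other early response genes tested, 16 were lower and 1 higher in insulin-only than in Gcg-only cells, and 20 were lower and 1 higher than in Ppy-only cells, while 4 were lower and 4 higher than in Sst-only cells. Over all genes tested, the shares lower and higher were 12.7% and 12.9% against Gcg-only, 10.6% and 10.2% against Ppy-only and 7.32% and 7.39% against Sst-only cells. Examples are the matricellular gene Ccn1 (-5.18 ± 0.51) and the kinase gene Plk2 (-2.85 ± 0.30) against Ppy-only cells and Sik1 (-2.55 ± 0.34) against Gcg-only cells. Of 32 other heat shock genes, 6 were lower and 2 higher against Gcg-only, 9 lower and 2 higher against Ppy-only and 1 lower and 3 higher against Sst-only cells. Those lower against Gcg-only and Ppy-only cells included the heat shock factor target Bag3 (-1.35 ± 0.20 and -2.26 ± 0.20) and the collagen chaperone Serpinh1 (-3.31 ± 0.44 and -4.11 ± 0.43), and the mitochondrial Hspa9 was higher in insulin-only than in Gcg-only and Ppy-only cells (0.63 ± 0.12 and 0.53 ± 0.12). Of 14 upstream regulators such as Srf and Hsf1, 3 were lower and 1 higher against Gcg-only, 1 lower and 2 higher against Ppy-only and 0 lower and 1 higher against Sst-only cells. In cells without a hormone, 34 of the early response genes were higher and 2 lower, 16 of the other heat shock genes higher and 6 lower, and 6 upstream regulators higher and 1 lower, where 35.2% of all genes were higher and 24.7% lower.

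The level of a member over all cells in library 2 was 0.932 to 1.70 times that in library 1, with a median of 1.07. The 4 highest ratios were those of Klf2 (1.70), Ier3 (1.37), Fosl2 (1.36) and Socs3 (1.27). No member had over 50% of its UMIs in 3 cells when all cells were counted, and the highest such share was 14.3%, for Egr2.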

How the data were processed

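Both libraries were processed with Cytonaut by the authors, who deposited 1 table of UMI counts per library, with reads assigned to GRCm38 genes. UMI-tools and Seurat are named in the submitters' processing notes, and the aligner is not given in the sources used here. The deposited counts are not normalized. UMIs were summed here per cell group and library (groups of at least 15 cells in each, 8 groups, 16 sums), leaving the 5 hormone genes out of library sizes. Sums were fitted with edgeR 4.0.16 (R 4.3.3; filterByExpr, TMM, quasi-likelihood test, Benjamini-Hochberg adjustment, threshold 0.05), with 8 residual degrees of freedom. Cells without a hormone were divided by marker genes in a further fit. DESeq2 1.42.0, scanpy 1.11.5 (Scrublet) and scipy 1.17.1 served for alternatives, doublets and intervals, and Python was 3.11.15.

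Members and lists were chosen with earlier results of these data known. Named were, per comparison, up to 8 called members in each direction by size of change, and up to 3 genes of each other list. Members with over 50% of the higher group's UMIs in 3 cells were said to rest on few cells. Groups of 1 library share that library. The differences between libraries correlated between groups at -0.057 to 0.105 (28 pairs of groups, 2 above 0.1). Poisson and exact binomial intervals are at 95% and cover counting error only, and 0 UMIs allow up to 3 counts.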

Additional observations from a re-analysis of the deposited data

How the results depend on the processing

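Sst-only sums rested on the fewest cells of the 4 groups (35 and 23), and every p-value measures technical spread. With the same number of cells in every sum, 11 members were called between Gcg-only and Sst-only (17 in the report), 4 between Gcg-only and Ppy-only (19) and 17 between Sst-only and Ppy-only cells (27), Klf10 turned to 0.0599 in insulin-only against Gcg-only cells (adjusted p = 0.992) and Hspe1 to -0.0031 in cells without a hormone, with fewer UMIs by construction. At a hormone limit of 0.5%, with groups from 10 cells (chosen after seeing the data, since the planned 15 could not be fitted), 11 members were called between Gcg-only and Sst-only cells and Nr4a2 turned to -0.85 in insulin-only against Sst-only cells; the cause was not tested. With no filter on low counts, 1 member passed for Gcg with Ppy and 3 for Sst with Ppy. Over the settings, the members called for insulin-only cells ranged from 23 to 33 against Gcg-only, 28 to 32 against Ppy-only and 15 to 25 against Sst-only cells. With the library as replicate block, 33 members passed among the 4 groups, 30 for insulin-only against Gcg-only and 21 for Gcg-only against Ppy-only cells, and every call of a named member was kept.

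Mean summed CPM moved by construction where all UMIs were the denominator, to 2667 (insulin-only), 10220 (Gcg-only), 8331 (Sst-only) and 13820 (Ppy-only) for immediate early and 3011, 8581, 8956 and 10540 for heat shock members, which puts Sst-only above Gcg-only cells. Without Hspa8 and Hsp90aa1 the heat shock sums were 2714, 7716, 6785 and 11350, and 4517 without a hormone. Medians over cells were 3307 (insulin-only) and 8552 (Sst-only) for immediate early and 4650, 11100 and 9362 (insulin-only, Gcg-only, Sst-only) for heat shock members. In Sst-only cells the immediate early sum was 9762 at 0.5%, 9097 at 5%, 9098 without called doublets and 8855 without Jund, and the heat shock sum 10720 at 0.5% and 10520 at 5%. In insulin-only cells the heat shock sum was 5396 at 5%. Within each library alone, all 262 pairs of called member and comparison kept their direction, and 32 of them moved by over 1.5 times in 1 library.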
